A study of Mus musculus with 6 samples.

Results

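The mitochondrial ribosomal protein genes are the nuclear genes that encode the protein subunits of the mitochondrial ribosome, or mitoribosome. They were taken by name, as every symbol that starts with Mrpl (large subunit series) or Mrps (small subunit series) followed by a digit, with pseudogene symbols left out, provided that 3 or more of the 6 libraries had an FPKM of 1 or higher. FPKM (mapped fragments scaled by transcript length and by library depth) is a level per length, so genes can be compared with each other. Of 24346 symbols, 77 matched the name and all 77 passed the level. Of these, 76 reached an FPKM of 1 in all 6 libraries and Mrps6 did so in 5, and 0 passed through 1 of the isotypes alone. By their known place in the particle, 50 encode large subunit proteins and 26 small subunit proteins. Mrps18a and Mrps30 were counted with the large subunit, where their proteins are found. Mrps36 was counted in neither, since its protein is known as a component of the 2-oxoglutarate dehydrogenase complex. The genes lie on 17 autosomes.

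The libraries came from B1-8germ B cells, whose engineered antibody heavy chain gives binding to the hapten NP. They were congenically marked and transferred into wild-type C57BL/6J mice. All hosts received NP-CGG (the hapten on chicken gamma globulin) in alum on day 0, and donor plasma cells were sorted by flow cytometry from the spleen on day 7. The 2 groups, with 3 libraries each, were IgM plasma cells and IgG1 plasma cells, so donor cell, host, antigen and time were shared and the sorted isotype differed. The isotype was taken from the labels and was not checked, since immunoglobulin chain genes were not analysed here. The labels do not say whether libraries of 1 group came from separate or pooled mice, so the p-values below measure the spread between libraries, which may be partly technical. Nor do they say whether IgM and IgG1 cells were sorted from the same mice.

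Mitoribosomes translate the few proteins that mitochondrial DNA encodes, all of them core subunits of the respiratory chain and ATP synthase. Their proteins are made in the cytosol and imported, and they assemble with mitochondrially encoded ribosomal RNA into a large subunit, which forms the peptide bond, and a small subunit, which reads the messenger RNA. Some subunits have a bacterial counterpart, while others are found in mitochondria only. Plasma cells depend on mitochondrial metabolism to sustain antibody secretion.

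Depth as counts is unknown, because the files give FPKM. The FPKM of all symbols summed to 730695 to 806599 per IgM library and 855123 to 914019 per IgG1 library. Of the 9087 genes tested, an IgM library listed 27 to 60 at 0 and an IgG1 library 74 to 288. Of 8 plasma cell markers 0 were higher and 5 were lower in IgG1 by limma at an adjusted p under 0.05, against 4.26% and 1.76% of all tested genes. At an unadjusted p under 0.05, 1 was higher and 5 lower. The 5 were Tnfrsf17, Prdm1, Jchain, Irf4 and Slamf7, with log2 fold changes of -2.92, -1.02, -0.77, -0.73 and -0.60. With the trend over length and GC content described below removed, 0 were higher and 3 lower at an adjusted p under 0.05. The summed FPKM of the 8 markers ranged from 44301 to 50167 in IgM and from 36772 to 39346 in IgG1. Jchain was the largest part of these sums, at 24812 to 28583 in IgM and 14208 to 16962 in IgG1. Mzb1, the next largest, was at 11685 to 15483 in IgM and 14828 to 15198 in IgG1, so the lower sums do not describe all the markers. The summed levels of markers of other cells were 2.19 to 5.80 in IgM and 2.26 to 7.94 in IgG1 for 8 T cell genes (Cd8b1 at 0), and 124 to 153 and 97.5 to 124 for 6 B cell genes (Pax5 at 0). They were 64.2 to 69.2 and 34.5 to 45.7 for 8 myeloid genes (S100a8, S100a9 and Itgax at 0). Cd68 was the largest part of the myeloid sums, at 56.1 to 58.8 in IgM and 34.2 to 40.9 in IgG1. Of 3 myeloid genes tested by limma, 0 passed, while 0 were higher and 3 lower at an unadjusted p under 0.05. With the trend removed 1 was lower at an adjusted p under 0.05. The part of these markers in the results below was not tested. Genes also differed between the isotypes by transcript length: across genes, each gene's deviation from its mean had a Spearman correlation with length of 0.15 to 0.31 in the IgM libraries and of -0.24 to -0.15 in the IgG1 libraries. The mitoribosomal transcripts are short, with a median of 1223 nt against 2488 nt over all tested genes, so the main results are also given with each library's trend over length and GC content removed.

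Mitoribosomal transcripts were higher in IgG1 than in IgM plasma cells for 13 of the 77 genes and lower for 0, by limma on log2(FPKM + 1) at an adjusted p under 0.05. Over all 9087 tested genes 4.26% passed in the higher direction and 1.76% in the lower. At an unadjusted p under 0.05, 28 of the 77 were higher and 0 lower, against 1082 and 931 of all 9087 genes. The fold change was above 0 for 67 of the 77, against 46.3% of all tested genes, and the median log2 fold change was 0.32 against -0.05. In 32 genes every IgG1 library was above every IgM library, against 13.7% of all tested genes, and in 0 genes was every IgG1 library below, against 13.5%. Leaving out 1 library in turn gave 1 to 10 genes higher (1 without IgM library 1, 2 without IgG1 library 2, 5 without IgG1 library 3 and 6 without IgM library 3). The count was 0 without the filter on low values or without limma's intensity trend (29 and 20 at an unadjusted p under 0.05), settings in which 1 and 3 of the same 9087 genes were called higher and 3 and 5 lower. It was 3 with quantile normalization and 4 after rescaling without Jchain, where 46 of the 77 were above 0 and the median of all genes was -0.25. That rescaling divided each library by its summed FPKM less Jchain. It therefore also evened out the totals, which were higher in the IgG1 libraries. In bulk RNA, fewer cells of a type and less RNA per cell cannot be told apart.

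**Figure D1:**
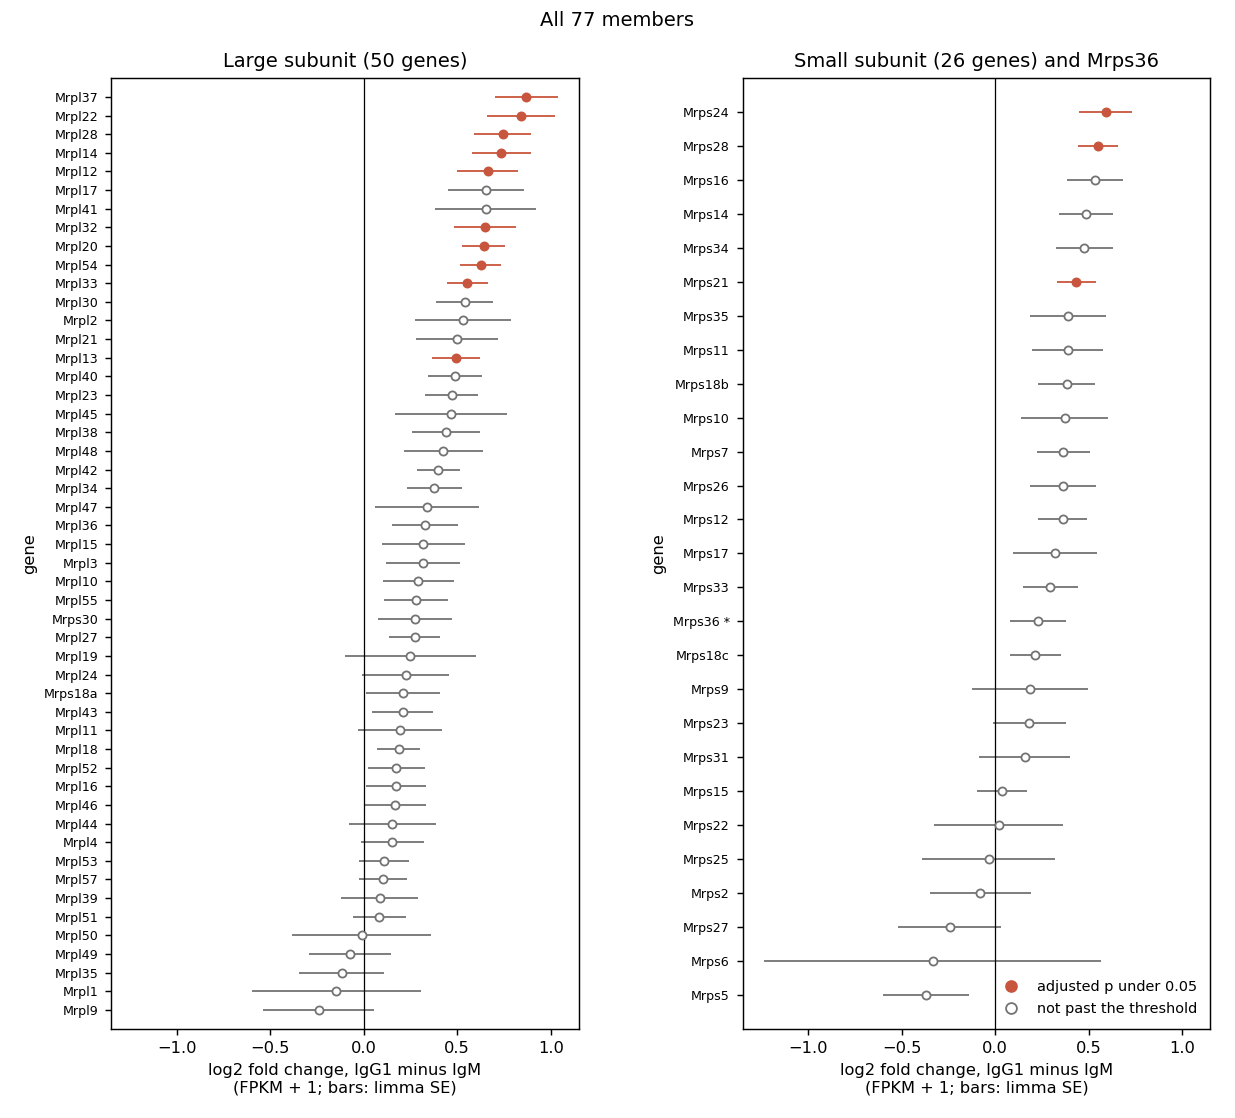
Log2 fold change (IgG1 minus IgM, on log2(FPKM + 1)) of each of the 77 genes, ordered by size within the large subunit (left, 50 genes) and the small subunit with Mrps36, marked by an asterisk (right). Points are limma estimates with standard error bars, and filled points are the 13 genes with an adjusted p under 0.05, all to the right of 0.

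With the trend over length and GC removed, 4 genes were higher (Mrpl17, Mrpl32, Mrpl37 and Mrps16) and 0 lower, against 1.38% and 0.995% of the genes with a known length. At an unadjusted p under 0.05 that fit gave 18 higher and 2 lower, against 813 and 768 of all 9043 genes. The fold change was then above 0 for 56 of the 77, against 47.6% of all genes, and the median was 0.15 against -0.03. Of the 13 genes called without this step, 2 kept the call (Mrpl32 and Mrpl37) and 12 stayed above 0, Mrps21 being the exception. The levels and tests below are without this step, and the value with it follows for the genes past the threshold.

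Promoter sequence is shown for 4 of the genes, to set members that did and did not pass the threshold beside the motifs found most often among those searched. RefSeq windows from 250 bases before to 50 after the start (GRCm38.p6, the assembly of mm10) were listed for 68 of the 77 genes, 10 of them among the 13 higher in IgG1. An E-box (CACGTG) and TATAAA were also searched. The motifs shown, searched on both strands with overlaps allowed, were CCGGAAG for ETS factors, GCATGCG for NRF1, the nuclear respiratory factor, and ATGGCGG for YY1. The 250 bases before the start are printed 5′ to 3′ on the gene's strand, with every match to these motifs in capitals. Mrpl22 is at chr11:58171414-58171663 on the plus strand, Mrpl28 at chr17:26123253-26123502 on the plus strand, Mrpl17 at chr7:105811088-105811337 on the minus strand and Mrps27 at chr13:99344536-99344785 on the plus strand.
Mrpl22: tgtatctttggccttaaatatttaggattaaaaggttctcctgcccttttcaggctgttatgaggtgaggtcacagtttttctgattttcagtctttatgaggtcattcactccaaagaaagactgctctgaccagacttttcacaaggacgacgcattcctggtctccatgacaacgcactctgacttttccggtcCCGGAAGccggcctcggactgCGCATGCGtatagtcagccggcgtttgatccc
Mrpl28: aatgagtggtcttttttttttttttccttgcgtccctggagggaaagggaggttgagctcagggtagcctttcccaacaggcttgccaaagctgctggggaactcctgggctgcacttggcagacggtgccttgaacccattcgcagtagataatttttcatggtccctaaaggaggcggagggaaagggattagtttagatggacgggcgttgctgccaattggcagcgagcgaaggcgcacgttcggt
Mrpl17: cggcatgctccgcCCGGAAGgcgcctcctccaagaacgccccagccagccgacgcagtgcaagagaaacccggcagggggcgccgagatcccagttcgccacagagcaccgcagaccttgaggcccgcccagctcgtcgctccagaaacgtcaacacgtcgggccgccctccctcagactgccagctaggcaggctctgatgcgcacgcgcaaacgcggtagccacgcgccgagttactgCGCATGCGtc
Mrps27: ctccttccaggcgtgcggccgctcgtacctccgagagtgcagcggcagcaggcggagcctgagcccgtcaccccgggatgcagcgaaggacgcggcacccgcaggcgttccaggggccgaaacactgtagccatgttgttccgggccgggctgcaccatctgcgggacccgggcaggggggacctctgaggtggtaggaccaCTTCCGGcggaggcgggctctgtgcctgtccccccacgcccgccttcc

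Before the start, Mrpl22, which was higher in IgG1, holds an ETS match and an NRF1 match read on both strands. Mrpl28, which was also higher, holds none of the 3 motifs. Mrpl17, which passed with the length trend removed and not without, holds an ETS and an NRF1 match, and Mrps27, which did not pass, holds an ETS match. Mrpl22 and Mrps27 also have a YY1 match after the start, which is not printed. Over the whole windows the ETS motif was found in 25 of 68 members (36.8%), against 9.93% of all listed genes and 24.5% of the listed genes tested here. The YY1 motif was in 13 (19.1%, against 4.69% and 11.2%) and the NRF1 motif in 8 (11.8%, against 4.01% and 8.63%). At least 1 of the 3 was in 36 members. The E-box CACGTG was in 5 (7.35%, against 8.09% and 12.5%) and TATAAA in 5 (7.35%, against 15.7% and 7.71%). Among the 10 listed genes that were higher in IgG1 the ETS motif was in 3, and among the other 58 in 22. The NRF1 motif was in 3 of the 10 (Mrpl22, Mrpl32 and Mrpl33) and in 5 of the 58. A match is a description of the letters, and binding was not measured.

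Larger changes went with higher levels, but not once the length trend was removed. Of the 21 genes with a mean FPKM of 150 or more, 11 were higher, with a median log2 fold change of 0.53. Of 26 genes between 50 and 150, 2 were higher and the median was 0.32. Of 30 genes under 50, 0 passed in limma (4 were higher and 0 lower at an unadjusted p under 0.05) and the median was 0.19. The trend-removed medians of these classes were 0.18, 0.08 and 0.17, with 2, 1 and 1 genes higher. The spread between libraries was also wider in the genes under 50, with a median SD of log2(FPKM + 1) of 0.21 in IgM and 0.31 in IgG1 against 0.17 and 0.21 over all 77, and the scale understates the change of the lowest. Across the 77 genes, the correlation of fold change with mean FPKM was 0.52 and that of mean FPKM with transcript length was -0.63 (Spearman, across genes that share their 6 libraries), so level and length moved together.

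Among the large subunit genes 10 of 50 were higher and 0 lower (19 and 0 at an unadjusted p under 0.05), with a median log2 fold change of 0.32 and 45 genes above 0. The gene with the largest change was Mrpl37, which encodes a subunit found only in mitochondria (chr4:107055874-107066868 on mm10). Its FPKM was 143, 169 and 167 in IgM libraries 1 to 3 and 225, 298 and 369 in IgG1 libraries 1 to 3. All IgG1 values lay above all IgM values, and the IgG1 libraries were the more spread of the groups. The mean rose from 159 ± 14.4 to 297 ± 72.0 (SD, n = 3 each), a log2 fold change of 0.87 with a standard error (SE) of 0.17 and an adjusted p of 0.0134 by limma. With the length trend removed it was 0.69 (adjusted p = 0.0281).

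Mrpl54 (chr10:81264713-81266934), a further mitochondria-specific subunit, had the smallest adjusted p. Its FPKM was 499, 525 and 422 in IgM against 737, 731 and 753 in IgG1. The 3 IgG1 libraries were within a few percent of each other and stood apart from the IgM libraries. The log2 fold change was 0.63 (SE 0.11, adjusted p = 0.00934). It was the only gene of the 13 that passed in each of the 6 fits that left out 1 library, with a highest adjusted p of 0.0466, yet with the length trend removed its value was 0.08 (adjusted p = 0.764). Its transcript is 604 nt long.

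Mrpl22, whose bacterial counterpart lines the exit tunnel, had an FPKM of 82.1, 75.6 and 96.0 in IgM against 142, 199 and 123 in IgG1. IgG1 library 2 was well above the other libraries, and the groups did not overlap. The log2 fold change was 0.84 (SE 0.18, adjusted p = 0.0217) and was 0.65 without that library, with the call lost. Its trend-removed value was 0.54 (adjusted p = 0.145). Mrpl14, whose protein sits at the face between the subunits, was at 127, 152 and 144 in IgM against 186, 254 and 275 in IgG1. Here IgG1 library 1 was the nearest to the IgM range but still above it. Its log2 fold change was 0.74 (SE 0.16, adjusted p = 0.0203), and 0.23 with the length trend removed (adjusted p = 0.393).

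Mrpl12 encodes the flexible stalk protein that recruits translation factors and is also known for binding the mitochondrial RNA polymerase. Its FPKM was 114, 183 and 142 in IgM against 216, 233 and 236 in IgG1. The IgM libraries varied more than the IgG1 libraries, and IgM library 2 came closest to the IgG1 range. The log2 fold change was 0.66 (SE 0.16, adjusted p = 0.0357), and 0.43 with the length trend removed (adjusted p = 0.123).

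Mrpl32, known as a substrate of the inner membrane m-AAA protease, which matures it before it joins the ribosome, had the longest transcript of the 13 (3013 nt). Its FPKM was 54.9, 68.1 and 54.3 in IgM against 92.7, 105 and 81.5 in IgG1. It was the lowest of the 13 in level, and its groups did not overlap. The log2 fold change was 0.65 (SE 0.16, adjusted p = 0.0406) and was 0.90 with the length trend removed (adjusted p = 0.0187).

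The other 4 large subunit genes past the threshold have bacterial counterparts. Mrpl20 was at 299, 361 and 307 in IgM against 490.2, 477 and 538 in IgG1, a log2 fold change of 0.64 (adjusted p = 0.0102). Mrpl28 was at 222, 331 and 246 in IgM against 393, 458 and 471 in IgG1, a log2 fold change of 0.74 (adjusted p = 0.0160). Mrpl33 was at 306, 275 and 312 in IgM against 411, 469.8 and 431 in IgG1, a log2 fold change of 0.55 (adjusted p = 0.0149). In each of these the IgG1 libraries lay clear above the IgM libraries. With the length trend removed the values were 0.19 for Mrpl20, 0.39 for Mrpl28 and 0.18 for Mrpl33, and none passed. Mrpl13, the 13th by adjusted p and so past the limit of 12 in the rule for named genes, was described after its values were seen. It was at 162, 178 and 214 in IgM against 262, 267 and 249.5 in IgG1, with a log2 fold change of 0.49 (adjusted p = 0.0458), and 0.33 with the length trend removed. Its exons overlap those of Mtbp on the opposite strand. Use of the strand in counting is not given in the sources used here, so its value may include reads of Mtbp. In all, 17 of the 77 genes share exon sequence with another coding gene, 15 of them on the opposite strand only. The values of all 17 may likewise include reads of the other gene. A pseudogene copy is named after 4 of the 77.

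**Figure D2:**
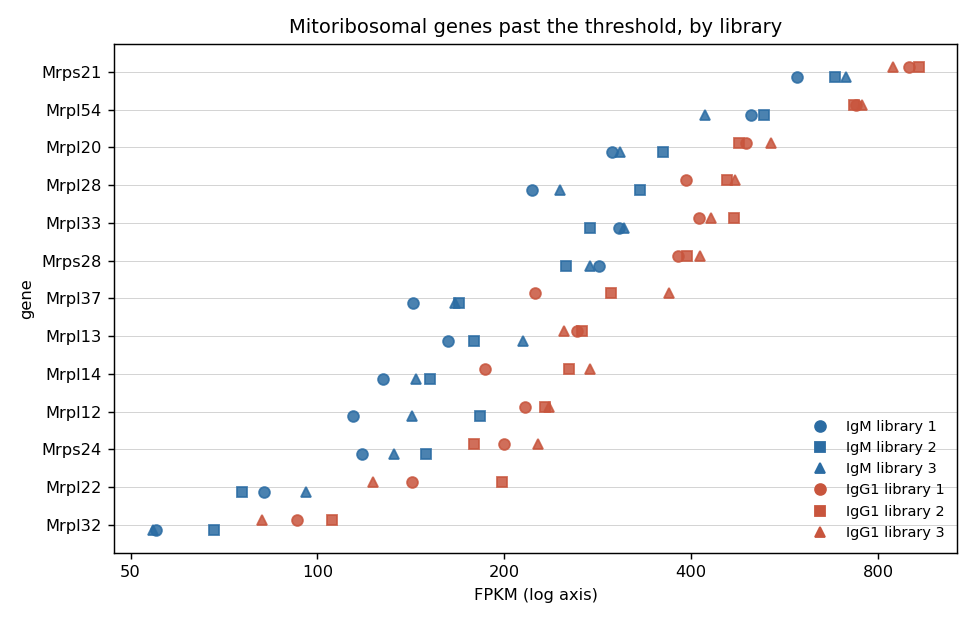
FPKM (log axis) in each of the 6 libraries for the 13 genes with an adjusted p under 0.05, ordered by mean level, with IgM in blue and IgG1 in red and a marker shape per library number. In each of these genes the 3 IgG1 libraries lie to the right of the 3 IgM libraries.

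Among the small subunit genes 3 of 26 were higher and 0 lower (9 and 0 at an unadjusted p under 0.05), with a median log2 fold change of 0.34 and 21 genes above 0. Mrps21 had the highest level of all 77 genes. Its FPKM was 592, 682 and 709.5 in IgM against 898, 932 and 847 in IgG1, which do not overlap. The log2 fold change was 0.43 (SE 0.11, adjusted p = 0.0356). It kept the call in 0 of the 6 fits that left out 1 library, and with the length trend removed its value was -0.04 (adjusted p = 0.877), below 0. Its median transcript length is 446.5 nt, among the shortest of the 77.

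Mrps28, the counterpart of bacterial S1, was at 284, 252 and 275 in IgM against 381, 394 and 413 in IgG1. The log2 fold change was 0.55 (SE 0.11, adjusted p = 0.0142). Mrps24, the counterpart of bacterial S3 at the messenger RNA entry, was at 118, 149.9 and 133 in IgM against 199.7, 179 and 227 in IgG1. Its log2 fold change was 0.59 (SE 0.14, adjusted p = 0.0320). Neither passed with the length trend removed, where the values were 0.19 and 0.29. Mrps16 and Mrps14, both with bacterial counterparts, had log2 fold changes of 0.53 (adjusted p = 0.0563) and 0.49 (adjusted p = 0.0698), short of the threshold. Mrps16 was at 140.0, 155 and 177 in IgM against 260.0, 189 and 239.6 in IgG1, again without overlap. With the length trend removed Mrps16 passed, at 0.68 (adjusted p = 0.0304). Mrps12, a protein of the decoding centre and among the small subunit genes of highest level, had a value of 0.36 (adjusted p = 0.126), which was -0.05 with the trend removed.

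By origin, 11 of the 46 subunits with a bacterial counterpart were higher and 2 of the 30 found in mitochondria only (Mrpl37 and Mrpl54), with median log2 fold changes of 0.35 and 0.21. After removal of the length trend these were 3 of 46 and 1 of 30, with medians of 0.17 and 0.13. The difference between the classes was not tested. In the large subunit the counts were 8 of 30 and 2 of 20, and in the small subunit 3 of 16 and 0 of 10 by limma (2 higher and 0 lower at an unadjusted p under 0.05). The 3 Mrps18 genes, paralogs related to bacterial S18, did not pass. In the classes above Mrps18c was counted as having a bacterial counterpart, and Mrps18a and Mrps18b as found in mitochondria only. Mrps18a, in the large subunit, had a log2 fold change of 0.21 (SE 0.20, adjusted p = 0.586), Mrps18b of 0.38 (SE 0.15, adjusted p = 0.165) and Mrps18c of 0.21 (SE 0.14, adjusted p = 0.392). In all 3 the IgM and IgG1 libraries overlapped, and for Mrps18a and Mrps18c the value was below 0 both with the length trend removed (-0.20 and -0.06) and after rescaling without Jchain (-0.02 each).

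Mrpl45, which anchors the mitoribosome to the inner membrane, had an FPKM of 23.1, 18.8 and 11.05 in IgM against 25.9, 18.2 and 28.3 in IgG1, a log2 fold change of 0.46 (SE 0.30, adjusted p = 0.402). IgM library 3 was the lowest of the 6 and the groups overlapped. Mrpl42 was among the 3 large subunit genes of highest level, at 346, 358 and 429 in IgM against 488, 499 and 502 in IgG1. Its groups did not overlap, but its log2 fold change of 0.40 did not pass (adjusted p = 0.0601). Mrps36, which is no ribosome subunit, was at 90.0, 101 and 103 in IgM against 109, 135 and 103 in IgG1, with a log2 fold change of 0.23 (SE 0.15, adjusted p = 0.407).

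The fold change was below 0 in 10 genes, and none of them passed. The lowest was Mrps5, a small subunit protein with a bacterial counterpart, at 29.7, 30.4 and 40.3 in IgM against 30.1, 27.3 and 19.9 in IgG1. The groups overlapped, and the log2 fold change was -0.37 (SE 0.23, adjusted p = 0.380). Its transcript is among the longer ones (4481 nt), and with the length trend removed the value was -0.08. Mrps6 was at 13.7, 5.46 and 9.36 in IgM against 15.9, 0.127 and 24.8 in IgG1. IgG1 library 2 was near 0 while the other IgG1 libraries were the highest of the 6. Its log2 fold change was -0.33 with that library (SE 0.90) and 1.07 without it. The exons of Mrps6 overlap those of Slc5a3 on the same strand, so its value is uncertain. Mrps27, an RNA-binding protein of the pentatricopeptide repeat family, had a log2 fold change of -0.24 (adjusted p = 0.666) and Mrps2 of -0.08 (adjusted p = 0.899). In the large subunit the lowest were Mrpl9 at -0.24, Mrpl1, the protein of the mobile L1 stalk, at -0.15, Mrpl35 at -0.12 and Mrpl49 at -0.07, with adjusted p of 0.698, 0.886, 0.809 and 0.885.

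The order of levels was alike in both isotypes. Mean FPKM in IgM and in IgG1 had a Spearman correlation of 0.99 across the 77 genes, which describes genes measured in the same libraries. The highest mean level was 114-fold above the lowest. After Mrps21 the highest were Mrpl54, Mrpl42 and Mrpl20 in the large subunit and Mrps12 and Mrps28 in the small. The lowest were Mrpl19 and Mrpl1 (means of 6.998 and 8.74 in IgM) and Mrps25 and Mrps6 (6.82 and 9.49). None of these 4 passed the test.

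In 8 genes (Mrpl1, Mrpl2, Mrpl9, Mrpl50, Mrps2, Mrps6, Mrps22 and Mrps27, chosen after their values were seen) the IgG1 libraries spanned more than 2-fold, against 2 genes for IgM (Mrpl45 and Mrps6). Apart from Mrpl2, each of these had a mean FPKM under 50. In Mrpl1, Mrpl39, Mrpl50, Mrps17 and Mrps22, IgG1 library 2 was the highest and IgG1 library 3 the lowest of all 6. Mrpl1, for example, was at 6.93, 6.75 and 12.6 in IgM against 7.44, 14.5 and 3.71 in IgG1. On the log2 scale the IgG1 SD was the larger in 49 of the 77 genes (63.6%), and in 67.1% of all tested genes. The median SD over all tested genes was 0.25 in IgM and 0.36 in IgG1, so a wider IgG1 spread was not particular to this family. The counts of genes above were not set beside their shares over all tested genes.

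Summed over the 77 genes, the FPKM was 8004, 8893 and 8656 in IgM libraries 1 to 3 and 11148, 11427 and 11816 in IgG1 libraries 1 to 3. As a share of all FPKM this was 1.10%, 1.10% and 1.14% in IgM against 1.30%, 1.30% and 1.29% in IgG1. The IgG1 libraries differed by less than the IgM libraries did, and the groups were apart. The means were 1.11% ± 0.0255 and 1.30% ± 0.00575 (SD, n = 3 each). Jchain, which joins IgM into pentamers, took a larger part of the FPKM in IgM, and with Jchain left out of the total the means were 1.15% ± 0.0236 and 1.32% ± 0.00851. The ratio of summed large to summed small subunit FPKM was 1.86, 1.97 and 1.78 in IgM against 1.91, 1.90 and 2.06 in IgG1, which overlap. The sums rest on the abundant genes, whose transcripts are short, and they take no account of the length trend.

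**Figure D3:**
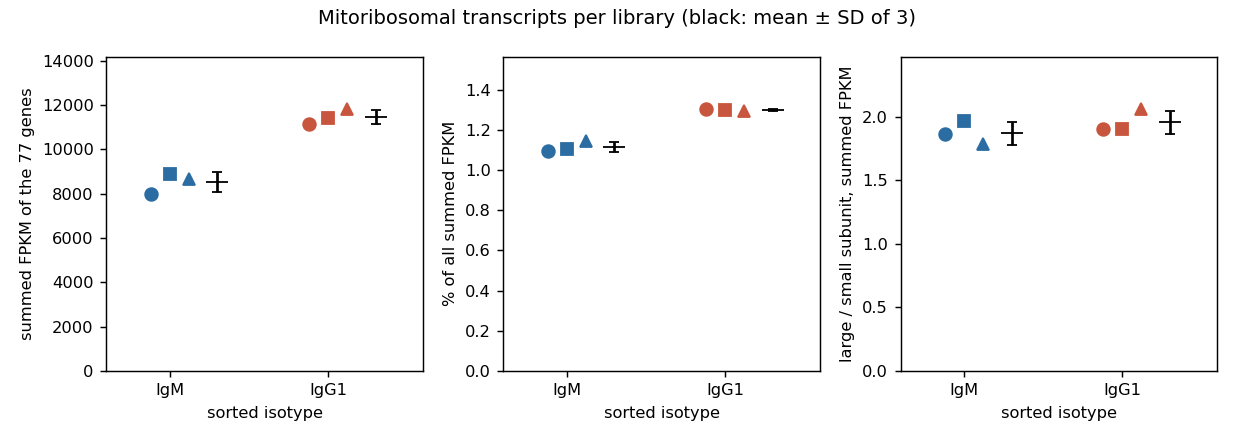
Summed FPKM of the 77 genes (left), their share of all summed FPKM in percent (middle) and the ratio of summed large to small subunit FPKM (right) in each library, with the mean ± SD of 3 in black. The IgG1 libraries lie above the IgM libraries in the first 2 panels, and the groups overlap in the last.

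Length and fold change went together within the family as they did outside it. Of the 30 genes with transcripts of up to 1000 nt, 8 were higher, with a median log2 fold change of 0.39. Of the 47 longer genes 5 were higher and the median was 0.22, while the trend-removed medians were 0.06 and 0.19. The Spearman correlation of fold change with length was -0.33 across the 77 genes and -0.36 across 9043 genes. With the trend removed it was 0.49 across the 77 and -0.01 across all, so the genes with long transcripts then had the larger values. Mrpl17, a large subunit gene with a transcript of 4164 nt that was named after its values were seen, was at 22.8, 23.5 and 20.4 in IgM against 31.7, 35.4 and 40.0 in IgG1. Its log2 fold change was 0.65 (adjusted p = 0.0800), and 0.92 with the trend removed (adjusted p = 0.0463). With lengths taken from each gene's principal transcript, the genes higher numbered 5, against 1.71% of all genes, and the added one was Mrps14.

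**Figure D4:**
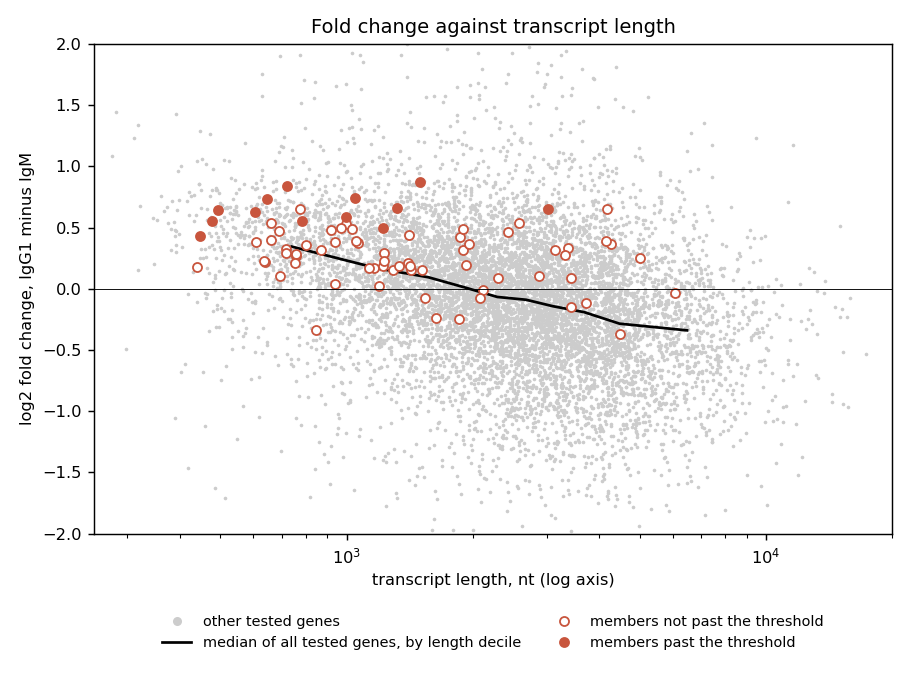
Log2 fold change (IgG1 minus IgM) against transcript length in nt (log axis) for 9043 tested genes in grey and the 77 mitoribosomal genes as circles, filled where the adjusted p was under 0.05. The black line joins the medians of all tested genes by length decile, and it falls with length. The axes leave out 62 other genes.

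The nucleus also encodes mitoribosomal subunits under other names and the factors that assemble and serve the ribosome. Of 6 subunits with other names 1 was higher and 0 lower (4 and 0 at an unadjusted p under 0.05). All 6 were above 0, with a median log2 fold change of 0.52, and of 0.46 with the length trend removed. The gene past the threshold was Ict1, a large subunit protein that frees stalled mitoribosomes by releasing the peptide. Its FPKM was 105, 115 and 121 in IgM against 163, 181 and 194 in IgG1. The groups stood apart, and the log2 fold change was 0.65 (SE 0.13, adjusted p = 0.0148). It passed with the trend removed as well, at 0.75 (adjusted p = 0.0123).

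The shares called in the further lists below are to be read against the 4.26% higher and 1.76% lower over all tested genes, and 1 gene in a list of 17 or 18 is near the former. Of 17 mitochondrial translation factors and factors listed with them 1 was higher and 0 lower (1 and 0 at an unadjusted p under 0.05), with a median log2 fold change of -0.07 and 7 genes above 0. The one higher was Mpv17l2, an inner membrane protein known for a part in mitoribosome assembly, at 32.1, 36.0 and 30.3 in IgM against 55.3, 54.4 and 71.7 in IgG1. Its log2 fold change was 0.85 (SE 0.18, adjusted p = 0.0207), and 0.43 with the trend removed (adjusted p = 0.201). Of 25 assembly factors and ribosomal RNA modifying enzymes 0 passed by limma in either direction (2 higher and 0 lower at an unadjusted p under 0.05), with a median of 0.08 and 13 above 0. The assembly factors of highest level were Malsu1, which keeps the subunits from joining early, with a value of 0.29 (SE 0.17, adjusted p = 0.349), and Rbfa, which acts on the small subunit, with 0.28 (SE 0.22, adjusted p = 0.510). Of 18 genes for mitochondrial DNA and RNA handling 1 was higher and 0 lower (3 and 0 at an unadjusted p under 0.05), with a median of 0.03 and 9 above 0. It was Slirp, which keeps mitochondrial messenger RNA stable, at 224, 227 and 214 in IgM against 295, 342 and 289 in IgG1. Its log2 fold change was 0.47 (SE 0.12, adjusted p = 0.0357), and 0.55 with the trend removed (adjusted p = 0.0187). With the trend removed, the medians of these lists were -0.13, -0.0004 and -0.02 in the order given. Their median FPKM in IgM was 12.9, 11.6 and 11.5, against 84.5 for the 77 genes. Their median transcript lengths were 2042, 1595 and 2627.5 nt, against 1223 nt. Whether these lists differ from the ribosomal proteins was not tested, nor was the part of level and length in it. The genes on mitochondrial DNA were not analysed here.

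**Figure D5:**
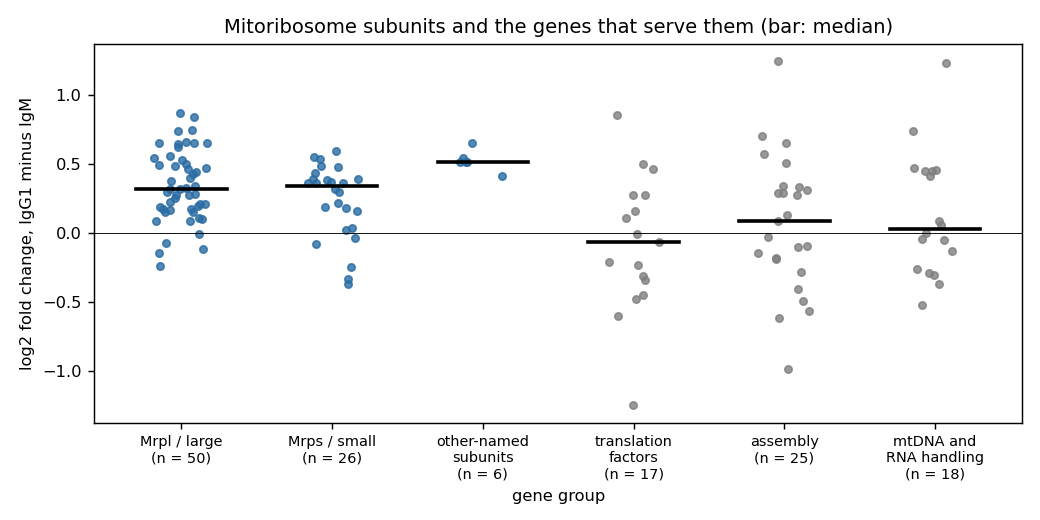
Log2 fold change (IgG1 minus IgM) of each tested gene in the large subunit, the small subunit, the subunits with other names, the translation factors, the assembly factors and the genes for mitochondrial DNA and RNA handling, with the number of genes under each name. Bars are medians, at 0.32, 0.34, 0.52, -0.07, 0.08 and 0.03 in that order. The length trend is not removed, and the groups differ in level and transcript length.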

How the data were processed

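Per the labels' protocols, RNA of sorted plasma cells was made into full-length cDNA with SMART-Seq HT and into libraries with Nextera XT. Cufflinks 2.2.1, Cuffdiff, Bowtie2 2.3.5.1 and TopHat2 2.1.1 were used on build mm10, per the submitters' processing notes. Neither an annotation nor a scaling of libraries is named in the labels. Per the file headers, the authors deposited FPKM, with 1 value for each of 24346 symbols and library. Since FPKM divides by length and depth, uneven coverage of long transcripts or a shift in composition moves the values.

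The FPKM were used as deposited. The 9087 genes that reached an FPKM of 1 in 3 or more of 6 libraries were transformed to log2(FPKM + 1). The IgG1 libraries were tested against the IgM libraries by limma 3.58.1 (R 4.3.3, eBayes with an intensity trend), with Benjamini-Hochberg adjustment over all of them and a threshold of 0.05. Lengths, GC content and gene positions came from GENCODE vM21 basic transcripts (GRCm38), with lengths for 99.5% of tested genes. The length and GC content of a gene are medians over its transcripts. For the trend-removed values, each library's loess trend (span 0.4) over log length and GC was subtracted. The code was tested on simulated data.

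Named genes were those past the threshold (at most 12 per direction), the 4 largest and 4 smallest changes and the 3 highest and 2 lowest levels of each subunit, and Mrps18a, Mrps18b, Mrps18c, Mrpl12, Mrpl45 and Mrps36. From each further list they were the genes past the threshold or the 2 of highest level. The genes, lists and tests were chosen with earlier results of these data known. No block was used, since the library numbers are not stated to pair animals. Deviations of same-numbered libraries had correlations of 0.101, -0.031 and -0.001. With so few libraries this check cannot exclude pairing. Alternatives are given in the closing section. The result of 1 planned marker list is not reported here.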

Additional observations from a re-analysis of the deposited data

How the results depend on the processing

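The count of 13 mitoribosomal genes higher in IgG1 was 15 with a replicate block, 13 with robust moderation, 10 and 15 with pseudocounts of 0.1 and 5, 16 with a filter at an FPKM of 5 and 18 with median centring. It was 3 with quantile normalization, 4 after rescaling without Jchain, 4 with the length and GC trend removed and 5 with principal transcript lengths. The rescaling (below, without Jchain) set all libraries to the same summed FPKM, with Jchain left out of the sum. The totals it evened out were higher in IgG1, so its values do not show the part of Jchain alone. It was 0 without a filter on low values (limma, 29 higher and 0 lower at an unadjusted p under 0.05) and 0 without the intensity trend (20 at that level). Among the 9087 genes tested throughout, these 2 settings called 1 higher and 3 lower, and 3 higher and 5 lower. Leaving out each library in turn gave 1 to 10, with 1 without IgM library 1, 2 without IgG1 library 2, 5 without IgG1 library 3 and 6 without IgM library 3, each from 5 libraries. With the length trend removed as well this range was 0 to 6. The count lower was 0 under each of these alternatives for which it was computed, which leaves out removing the trend together with a library. The replicate block moved 1 named gene past the threshold and ended no call among the named genes, and not every library correlated best with its own number. Principal transcript lengths, and removing the trend while leaving out a library, were chosen after seeing the data.

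For the large subunit the count of 10 was 0 without the filter, 3 with quantile normalization, 4 without Jchain, 0 without the intensity trend, 3 with the length trend removed (3 with principal lengths) and 1 to 8 on leaving out a library. For the small subunit the count of 3 was 0 without the filter, 5 with median centring, 0 with quantile normalization, 0 without Jchain, 0 without the intensity trend, 1 with the length trend removed and 0 to 2 on leaving out a library. Over the further lists the count of 3 was 0 without the filter, 5 with a filter at 5, 5 with median centring, 0 without Jchain, 0 without the intensity trend and 0 to 3 on leaving out a library. The cause of these shifts was not tested.

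The median log2 fold change of 0.32 stayed above 0 throughout. It was 0.39 with median centring, 0.22 with quantile normalization, 0.092 without Jchain, 0.15 with the length trend removed and 0.13 with principal lengths. For the large subunit these values were 0.39, 0.24, 0.094, 0.18 and 0.17, and for the small subunit 0.42, 0.20, 0.11, 0.093 and 0.075. On leaving out a library the small subunit median was 0.29 to 0.36. Rescaling without Jchain put the median of all tested genes at -0.25, with 46 of the 77 above 0 and 69 above that median. Over all genes the calls were 387 higher and 160 lower, 489 and 118 with median centring, 188 and 200 with quantile normalization, and 177 and 393 without Jchain.

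Some named genes changed sign. With the length trend removed (and with principal lengths) Mrpl1 was at 0.14 (0.12), Mrpl35 at 0.18 (0.15), Mrps12 at -0.054 (-0.055), Mrps18a at -0.20 (-0.15), Mrps18c at -0.058 (-0.12), Mrps21 at -0.036 (-0.059), Mrps25 at 0.26 (0.30) and Mrps36 at -0.086 (-0.079). Without Jchain Mrps18a was at -0.020, Mrps18c at -0.017 and Mrps36 at -0.0009. With median centring Mrpl49 was at 0.0035 and Mrps25 at 0.041, with quantile normalization Mrps25 was at 0.076, and with a pseudocount of 5 Mrps6 was at 0.062. On leaving out a library the ranges that crossed 0 were -0.58 to 0.28 for Mrpl1, -0.57 to 0.088 for Mrpl9, -0.21 to 0.067 for Mrpl49, -0.35 to 0.13 for Mrps2, -1.19 to 1.07 for Mrps6, -0.26 to 0.16 for Mrps25 and -0.48 to 0.0088 for Mrps27. Depth in counts is unknown, so no limit from depth can be given for the low genes.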

Other observations

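Many mitoribosomal genes share their upstream region with a neighbour that is read in the other direction. In GENCODE vM21, 23 of the 77 genes (29.9%) had a coding gene on the opposite strand starting within 1000 nt, with an overlap of up to 250 nt allowed, against 15.8% of tested genes and 8.34% of all coding genes. The median distance between the starts was 100 nt, with gaps and overlaps taken alike. Mrpl21, Mrpl27, Mrpl36 and Mrps7 share exon sequence with such a neighbour on the opposite strand, so the values of these pairs may include each other's reads. Of the 23 neighbours 21 were tested, and limma called 3 higher in IgG1 and 0 lower (3 and 0 at an unadjusted p under 0.05). Their median log2 fold change was 0.16, and 14 were above 0. Over all tested genes 4.26% were higher, 1.76% lower and 46.3% above 0. With the length trend removed 1 was higher and 0 lower, against 1.38% and 0.995% of all genes.

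The neighbours that were higher encode proteins of other particles. Psma2, a proteasome core subunit whose start lies 75 nt from that of Mrpl32, had a log2 fold change of 0.38 (adjusted p = 0.0489 by limma), beside 0.65 for Mrpl32. Ndufs6, a subunit of respiratory complex I whose start is 29 nt from that of Mrpl36, had 0.42 (adjusted p = 0.0485 by limma). Mrpl36 was at 0.33 and did not pass. The exons of Ndufs6 and Mrpl36 overlap on opposite strands, so each value may include reads of the other gene. Fau, which encodes a cytosolic small subunit ribosomal protein fused to a ubiquitin-like protein and lies 59 nt from Mrpl49, had 0.51 (adjusted p = 0.0234), while Mrpl49 was at -0.07 and did not pass. These genes were named after their values were seen.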
